A study of Mus musculus with 4 samples.

Results

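The collagens, laminins and stromal cell genes of mouse pancreatic islets comprised 67 of the 55536 genes counted. They were taken by symbol alone: every numbered collagen alpha-chain gene (44 genes), every laminin chain gene (11 genes), both nidogens, perlecan (Hspg2), and 9 genes grouped here as stromal cell genes. Stromal cells here are fibroblasts, stellate cells and pericytes, and whether other cells also express these 9 genes was not tested. RNA came from pancreatic islets, which hold the hormone-secreting cells, of C57BL/6 males aged 8 weeks, freed from the organ with collagenase. The insulin-depleted group (2 libraries) was treated with the DepleteX insulin panel of Jumpcode Genomics during preparation with a KAPA mRNA kit, and the non-depleted group (2 libraries) was prepared from polyadenylated RNA without it. All animals are given as the same strain, sex and age, with no genetic change named. The labels call the libraries of a group biological replicates, but every column name carries the same pair of codes, so separate animals are not shown. Each p-value reflects only how far these libraries spread, which may be technical. Part of that spread went with the replicate number, since libraries with the same number deviated together across groups (r = 0.846 over 11552 genes). The main tests and intervals are on group alone and count it as spread. A size-selection tag stands in the non-depleted column names alone, and its effect cannot be told apart from that of depletion.

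A basement membrane is a thin sheet of matrix on which epithelial and endothelial cells sit. It is built from a type IV collagen network and a laminin network that nidogens and perlecan join, whereas fibrillar collagens form the tensile fibres of connective tissue around it. In islets, basement membrane surrounds the capillaries and the islet edge, and fibroblasts, stellate cells and pericytes are the usual sources of connective-tissue matrix.

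Libraries held 19316173 and 65030111 counts in insulin-depleted replicates 1 and 2, against 50605417 and 60528485 in non-depleted replicates 1 and 2. Ins1 and Ins2 took 0.195% and 0.264% of counts in the insulin-depleted libraries and 4.14% and 3.97% in the non-depleted libraries, so the depletion label held for its targets. Levels below are therefore CPM, counts scaled to a common library total from which Ins1 and Ins2 were left out. A limit of 3 counts per library corresponds to 0.156 and 0.0463 CPM in the insulin-depleted and 0.0618 and 0.0516 CPM in the non-depleted libraries. The beta-cell gene Iapp, which encodes amylin, had 18450 and 17550 CPM in the insulin-depleted and 18760 and 17400 CPM in the non-depleted libraries.

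The genes that dominate this set, Col4a1 and Col4a2, encode the chains of the common type IV collagen network and lie head to head on mouse chromosome 8 (GRCm38). Col4a1 (ENSMUSG00000031502) spans 11198423 to 11312826 on the minus strand and Col4a2 (ENSMUSG00000031503) spans 11312805 to 11449287 on the plus strand, so the annotated starts of the pair overlap by 22 bases. Col4a4 and Col4a3 on chromosome 1 are arranged likewise with 71 bases between their starts, and Col4a6 and Col4a5 on chromosome X with 1308 bases between them. The start regions are shown because the pairs can be set beside their RNA ratios below. Each runs from 250 bases before to 50 bases after the RefSeq start (RefSeq, GRCm38.p6). In the Col4a1 window (chr8:11312777-11313076, minus strand) capitals mark the 78 bases it shares with the Col4a2 window. In the Col4a4 window (chr1:82586800-82587099, minus strand) they mark the 71 bases between the Col4a4 and Col4a3 starts. In the window of Col1a2, a type I collagen chain gene (chr6:4505368-4505667, plus strand), shown for contrast, they mark CCAAT on either strand.
Col4a1: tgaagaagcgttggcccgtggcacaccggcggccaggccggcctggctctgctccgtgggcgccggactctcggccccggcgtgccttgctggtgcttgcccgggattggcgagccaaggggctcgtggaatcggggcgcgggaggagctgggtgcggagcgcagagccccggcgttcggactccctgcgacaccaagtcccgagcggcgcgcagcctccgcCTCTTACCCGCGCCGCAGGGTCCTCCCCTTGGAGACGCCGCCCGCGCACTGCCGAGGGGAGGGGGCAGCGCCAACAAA
Col4a4: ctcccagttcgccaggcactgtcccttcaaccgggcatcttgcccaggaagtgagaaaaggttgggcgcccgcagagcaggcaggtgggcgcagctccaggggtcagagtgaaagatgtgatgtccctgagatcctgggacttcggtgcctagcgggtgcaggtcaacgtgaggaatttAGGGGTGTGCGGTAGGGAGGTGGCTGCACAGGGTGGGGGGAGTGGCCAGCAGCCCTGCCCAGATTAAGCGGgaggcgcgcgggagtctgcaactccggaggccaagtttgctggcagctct
Col1a2: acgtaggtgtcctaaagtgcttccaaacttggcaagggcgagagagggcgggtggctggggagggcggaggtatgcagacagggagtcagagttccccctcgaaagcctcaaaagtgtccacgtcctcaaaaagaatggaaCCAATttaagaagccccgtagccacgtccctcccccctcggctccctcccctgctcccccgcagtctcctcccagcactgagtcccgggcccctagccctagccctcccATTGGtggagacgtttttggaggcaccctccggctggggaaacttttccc
The RefSeq start of Col1a2 lies inside the gene as GENCODE draws it, which begins at 4504814. G and C made up 74.0% of the Col4a1 window, more than in 95.2% of all windows of that length, against 63.3% for Col4a4 and 61.0% for Col1a2. On either strand the Col4a1 window held CCAAT at 1 place and GGGCGG at 1, the Col4a4 window held neither, and the Col1a2 window held each at 2 places. TATAAA was in none of these windows. Places of different motifs overlapped at 0 positions in these windows, and a match is a description only. Of 52 windows found for 48 of the 67 genes, 17 held CCAAT (32.7%, against 37.4% of all 32851 windows), 29 held GGGCGG (55.8% against 35.7%) and 6 held TATAAA (11.5% against 13.6%).

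All 67 genes together took 0.280% and 0.321% of counts other than insulin in insulin-depleted replicates 1 and 2, against 0.281% and 0.321% in non-depleted replicates 1 and 2. Exact Clopper-Pearson 95% intervals were 0.277 to 0.282% and 0.319 to 0.322% in the insulin-depleted and 0.280 to 0.283% and 0.320 to 0.323% in the non-depleted libraries, and they cover counting error only. The group means were 0.300% ± 0.0291 and 0.301% ± 0.0283 (SD, n = 2 each), a difference of -0.00107 percentage points that was far smaller than the spread between replicates (p = 0.667 in a two-sided exact permutation test, where 2 against 2 libraries allow no value below 0.333). Replicate 2 had the higher share in both groups. The number of these genes with at least 3 counts was 60 and 65 in the insulin-depleted and 66 in each of the non-depleted libraries, with the smallest number in the shallowest library. In bulk RNA, fewer cells of a type and less RNA per cell cannot be told apart.

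To rank genes, CPM was divided by the length of the merged exons of each gene in kilobases (CPM per kb). A few basement membrane and stromal cell genes led, and fibrillar collagens stood below them. Of the 10 highest genes, 6 were basement membrane genes, 3 were stromal cell genes, 1 was a multiplexin collagen and 0 were fibrillar collagens, whose best rank was 15. These classes hold 20, 9, 2 and 11 genes in that order, so the counts are not shares. Other basement membrane genes ranked low, with Col4a5 at 48 and Col4a6 at 62 of 67. The summed level of the 20 basement membrane genes was 196 and 242 CPM per kb in insulin-depleted replicates 1 and 2, against 197 and 242 in non-depleted replicates 1 and 2. Col4a1 and Col4a2, at means of 68.2 and 56.8 CPM per kb over the 4 libraries, held much of that sum. The 11 fibrillar collagens summed to 26.2 and 30.0 CPM per kb in the insulin-depleted and 27.05 and 30.7 in the non-depleted libraries. The fibrillar to basement membrane ratio was thus 0.134 and 0.124 in the insulin-depleted and 0.137 and 0.127 in the non-depleted libraries. Its means of 0.129 ± 0.00693 and 0.132 ± 0.00739 (SD, n = 2 each) differed by -0.04 on the log2 scale, less than the spread between replicates (p = 0.667, exact permutation test, two-sided). Within each group the ratio was lower in replicate 2, and within each replicate number it was lower in the insulin-depleted library. The test does not use the shared numbers, which the labels do not tie to a shared animal. The lower ratio in replicate 2 went with Col4a1 and Col4a2. Col4a1 had 55.6 and 80.3 CPM per kb in insulin-depleted replicates 1 and 2 and 55.5 and 81.2 in the non-depleted pair. Col4a2 had 46.4 and 66.7 against 46.3 and 67.8. Median replicate ratios over genes, given below, leaned the other way, being higher for fibrillar collagens than for basement membrane genes.

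**Figure D1:**
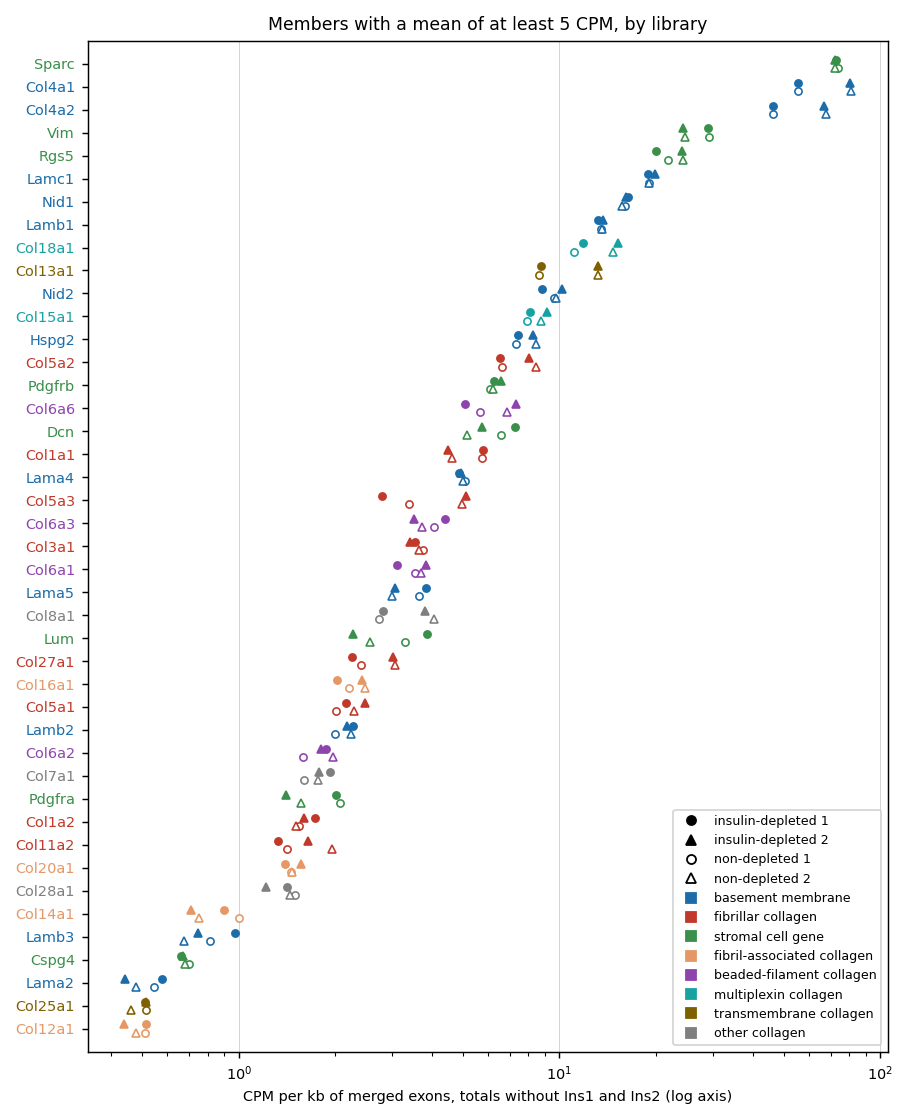
Level of 43 genes averaging 5 CPM or more, as CPM per kb of merged exons on a log axis, ranked by the mean of 4 libraries. Filled symbols are insulin-depleted and open symbols non-depleted libraries, circles are replicate 1 and triangles replicate 2, and colours give the gene class. Sparc, Col4a1 and Col4a2 stand at the top, and for most genes triangles lie together and circles lie together whatever the fill.

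Col4a1 had 415 and 599 CPM in insulin-depleted replicates 1 and 2, against 415 and 606 CPM in non-depleted replicates 1 and 2. Col4a2 had 307 and 442 CPM in the insulin-depleted and 306 and 449 CPM in the non-depleted libraries. Both genes were higher in the replicate 2 library of each group, and the groups overlapped. Together they took 29.4% of all counts of the 67 genes. By group, Col4a1 averaged 507 ± 130 and 510 ± 136 CPM and Col4a2 374 ± 95.3 and 377 ± 101 CPM in the insulin-depleted and non-depleted libraries (SD, n = 2 each). The log2 fold change of each was -0.01 with a 95% interval of -0.59 to 0.56 (edgeR quasi-likelihood test, adjusted p = 1).

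While both levels varied between replicates, their ratio hardly did. Col4a1 over Col4a2 was 1.199 and 1.203 CPM per kb to 1 in the insulin-depleted and 1.200 and 1.198 in the non-depleted libraries, a coefficient of variation of 0.156% over 4 libraries. With the longest annotated transcript as the length it was 1.32 in all libraries. A coefficient of 0.156% is smaller than counting error alone on 8000 and 5918 counts in insulin-depleted replicate 1. The counts therefore do not resolve how constant the ratio is at that scale. The levels of Col4a1 in the same libraries differed 1.44-fold between the insulin-depleted and 1.46-fold between the non-depleted replicates. The other head-to-head pairs were too low for such a comparison. Col4a3 and Col4a4, chains of the type IV network of kidney glomeruli and other specialised membranes, averaged 2.05 and 0.664 CPM in the insulin-depleted and 1.84 and 0.567 CPM in the non-depleted libraries. Col4a5, their X-linked partner, had 2.75 and 0.956 CPM in insulin-depleted replicates 1 and 2 and 3.42 and 1.67 CPM in non-depleted replicates 1 and 2, so it was higher in replicate 1. Col4a6 stayed between 0.124 and 0.311 CPM.

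**Figure D2:**
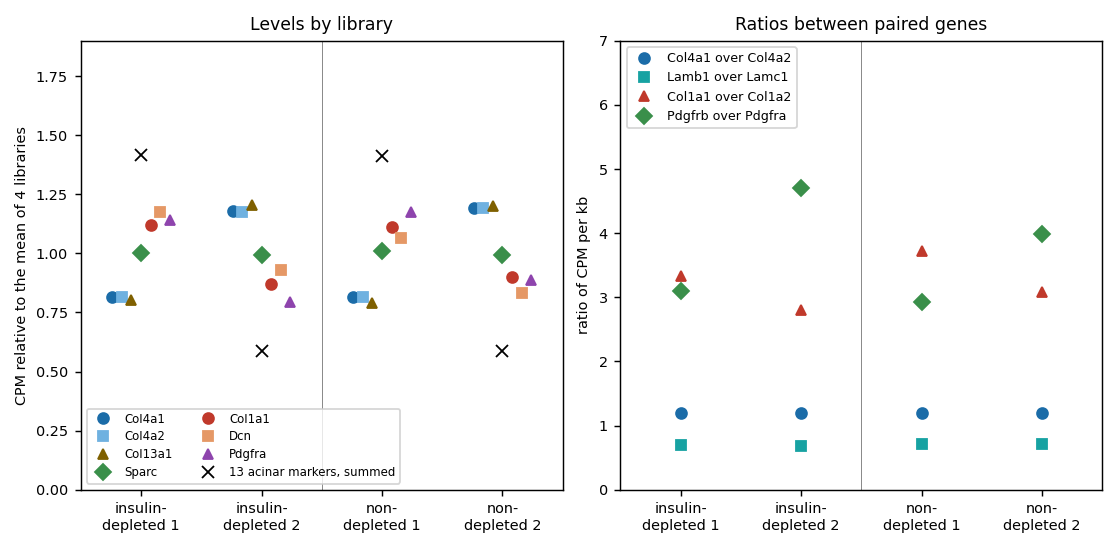
Left, CPM of 7 genes and the summed CPM of 13 acinar-cell markers in each library, relative to the mean of the 4 libraries. Right, ratios of CPM per kb between paired genes, with the insulin-depleted libraries left of the line in both panels. Col4a1 over Col4a2 stays at 1.2 in every library, while Col4a1 and Col4a2 move with replicate number in the direction opposite to Col1a1, Dcn and Pdgfra.

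Laminins are cross-shaped trimers of an alpha, a beta and a gamma chain. The broadly used beta and gamma chain genes Lamb1 and Lamc1 were even across libraries. Lamc1 had 156 and 165 CPM in the insulin-depleted and 157 and 157 CPM in the non-depleted libraries, and Lamb1 had 131 and 135 CPM against 134 and 134 CPM. Neither separated the groups, and log2 fold changes were 0.03 (SE 0.07) for Lamc1 and -0.01 (SE 0.07) for Lamb1. Their ratio, Lamb1 over Lamc1, was 0.699 and 0.686 per kb in the insulin-depleted and 0.712 and 0.714 in the non-depleted libraries, a coefficient of variation of 1.86%. This ratio turns above 1, to between 1.08 and 1.13, when the longest transcript is used as the length, so which of the pair is higher per length depends on the annotation. Counting error on 2525 and 3013 counts in insulin-depleted replicate 1 is no smaller than 1.86%. This coefficient and that of Col4a1 over Col4a2 therefore do not rank the pairs.

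Among alpha chains, Lama4, typical of endothelial membranes, and Lama5, typical of mature epithelial and vessel membranes, led. Lama4 had 58.7 and 59.4 CPM in the insulin-depleted and 61.4 and 60.2 CPM in the non-depleted libraries. Lama5 had 43.8 and 34.9 CPM in insulin-depleted replicates 1 and 2 and 41.6 and 34.3 CPM in non-depleted replicates 1 and 2. Lama4 lay slightly lower in both insulin-depleted libraries (log2 fold change -0.05, 95% interval -0.25 to 0.15, edgeR adjusted p = 1), and Lama5 followed the replicate number in both groups. Per kb of merged exons Lama4 stood at 1.27 to 1.66 times Lama5 over the 4 libraries, and per kb of the longest transcript at 2.52 to 3.31 times. The muscle and nerve chain gene Lama2 averaged 8.34 ± 1.55 and 8.36 ± 0.801 CPM, and the embryonic chain gene Lama1 0.702 ± 0.0338 and 0.961 ± 0.507 CPM in the insulin-depleted and non-depleted libraries (SD, n = 2 each).

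Other laminin chain genes were low. Lamb3, the beta chain of an epithelial anchoring laminin, had 6.43 and 4.93 CPM in the insulin-depleted and 5.38 and 4.46 CPM in the non-depleted libraries. Lama3, an epithelial alpha chain gene, had 4.25 and 4.47 CPM in the insulin-depleted and 3.57 and 5.39 CPM in the non-depleted libraries. The groups overlapped for both. The gamma chain gene Lamc3 stayed between 1.00 and 1.30 CPM, and Lamb2, a beta chain of vessel and synaptic membranes, between 12.2 and 13.8 CPM.

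Nidogens bridge the laminin and type IV collagen networks. Nid1 had 114 and 112 CPM in the insulin-depleted and 111 and 109 CPM in the non-depleted libraries. All values lay within a few CPM of each other, with both insulin-depleted libraries just above both others (log2 fold change 0.03, SE 0.08, edgeR adjusted p = 1). Nid2 had 45.5 and 52.6 CPM against 49.6 and 50.5 CPM. About 8.45% of Nid2 exon bases are also exon of Rtraf on the other strand, and the sources used here do not state whether strand was used in counting. Hspg2, the large heparan sulfate proteoglycan perlecan, had 106 and 119 CPM in the insulin-depleted and 105 and 120 CPM in the non-depleted libraries, and its groups overlapped.

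The leading fibrillar collagen per kb was Col5a2, a chain of the type V collagen that helps to set fibril diameter. It had 62.5 and 76.9 CPM in the insulin-depleted and 63.7 and 81.2 CPM in the non-depleted libraries, with replicate 2 higher in both groups. Col5a3, another type V chain, had 19.1 and 34.7 CPM in the insulin-depleted and 23.2 and 33.9 CPM in the non-depleted libraries. Its replicates differed 1.82-fold and 1.46-fold, and its log2 fold change of -0.07 carried an interval of -0.84 to 0.69. Col5a1 had 18.4 and 21.01 CPM against 17.1 and 19.4 CPM.

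The classical collagens of scar and interstitial fibres were lower than Col5a2. Col1a1, a type I collagen chain, had 37.8 and 29.4 CPM in insulin-depleted replicates 1 and 2 and 37.6 and 30.4 CPM in non-depleted replicates 1 and 2, so here replicate 1 was higher. Its partner Col1a2 had 21.5 and 19.9 CPM in the insulin-depleted and 19.2 and 18.7 CPM in the non-depleted libraries. Col1a1 exceeded Col1a2 2.80 to 3.72 times per kb of merged exons and 1.34 to 1.77 times per kb of the longest transcript, since the merged exons of Col1a2 are long. Col3a1, the type III collagen of pliable tissue, had 34.8 and 33.6 CPM against 36.9 and 35.9 CPM. Both insulin-depleted libraries were lower than both non-depleted ones for Col3a1 (log2 fold change -0.09, SE 0.10, edgeR adjusted p = 1) and higher for Col1a2 (0.12, SE 0.11, edgeR adjusted p = 1). Col27a1 averaged 34.4 ± 7.24 and 35.7 ± 6.11 CPM in the insulin-depleted and non-depleted libraries (SD, n = 2 each). The fibrillar genes Col11a1, Col2a1 and Col24a1 averaged at most 1.43 CPM in either group, and Col11a2 averaged 10.2 ± 1.54 and 11.6 ± 2.62 CPM.

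Collagens outside the fibrils and the type IV network varied widely in level. The multiplexins Col18a1, whose C-terminal fragment is endostatin, and Col15a1 are basement membrane zone collagens. Col18a1 had 82.8 and 107 CPM in the insulin-depleted and 77.7 and 103 CPM in the non-depleted libraries, and Col15a1 had 51.3 and 58.2 CPM against 50.2 and 55.4 CPM. Col13a1, a collagen anchored in the cell membrane, had 40.5 and 60.8 CPM in the insulin-depleted and 39.8 and 60.6 CPM in the non-depleted libraries. Replicate 2 was the higher library for each of these genes in both groups. The other membrane collagens were low: Col25a1 averaged 6.62 and 6.32 CPM, and Col23a1 and Col17a1 had at most 0.379 CPM in every library.

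Type VI collagen forms beaded filaments beside basement membranes. The most abundant gene of this class was Col6a6, with 46.6 and 66.9 CPM in the insulin-depleted and 52.0 and 62.9 CPM in the non-depleted libraries. Per kb it stood at 1.60 to 1.899 times Col6a1, a chain of the standard trimer. Col6a3, another chain of that trimer, had 52.6 and 42.2 CPM against 48.5 and 44.5 CPM, with replicate 1 higher in both groups. Col6a1 had 13.7 and 16.8 CPM against 15.6 and 16.2 CPM, and Col6a2 had 15.6 and 15.1 CPM against 13.2 and 16.4 CPM. Col6a4 and Col6a5 stayed between 0.493 and 1.82 CPM. Of the fibril-associated collagens, which decorate fibres, Col16a1 led with 13.6 and 16.4 CPM against 14.9 and 16.7 CPM. Col14a1 had 6.33 and 4.995 CPM in the insulin-depleted and 7.01 and 5.26 CPM in the non-depleted libraries, higher in replicate 1. Col8a1, a network-forming collagen of vessel walls and the eye, had 22.0 and 29.8 CPM against 21.5 and 31.8 CPM, higher in replicate 2. Col7a1, which makes the anchoring fibrils of skin, averaged 19.1 ± 1.14 and 17.3 ± 1.23 CPM in the insulin-depleted and non-depleted libraries (SD, n = 2 each).

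Among the 9 stromal cell genes, Sparc was the highest of all 67 genes per kb. Sparc encodes a secreted protein that binds collagen. It had 276 and 274 CPM in the insulin-depleted and 279 and 274 CPM in the non-depleted libraries, a spread of a few CPM over 4 libraries. Sparc ranked above Col4a1 in the replicate 1 library of each group and below it in the replicate 2 library. Vim, the intermediate filament of mesenchymal cells, had 138 and 115 CPM in the insulin-depleted and 139 and 116 CPM in the non-depleted libraries, and was higher in replicate 1.

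Pericytes wrap capillaries, and Rgs5, Pdgfrb and Cspg4 are genes commonly used to mark them. Rgs5, a regulator of G-protein signalling, had 90.8 and 109 CPM in the insulin-depleted and 99.1 and 111 CPM in the non-depleted libraries. Pdgfrb, the receptor through which endothelial cells recruit pericytes, had 34.1 and 36.1 CPM against 33.2 and 34.1 CPM, with both insulin-depleted libraries slightly higher (log2 fold change 0.06, SE 0.09, edgeR adjusted p = 1). Cspg4, the proteoglycan NG2, had 7.88 and 7.99 CPM against 8.33 and 8.12 CPM. Acta2, the actin of smooth muscle and of activated stellate cells and myofibroblasts, was the lowest of the 9 stromal cell genes in CPM, with 1.45 and 1.17 CPM in the insulin-depleted and 1.11 and 1.31 CPM in the non-depleted libraries.

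Pdgfra, Dcn and Lum, genes typical of fibroblasts, were higher in replicate 1 of both groups. The further fibroblast and stellate markers given below summed higher in replicate 2, a direction that came from Gsn alone. Pdgfra, a receptor typical of fibroblasts, had 20.2 and 14.0 CPM in insulin-depleted replicates 1 and 2 and 20.8 and 15.7 CPM in non-depleted replicates 1 and 2. Dcn, the small proteoglycan decorin that binds fibrillar collagen, had 42.3 and 33.5 CPM against 38.4 and 30.1 CPM. Lum, the related lumican, had 9.44 and 5.58 CPM against 8.08 and 6.26 CPM. In each case replicate 1 was the higher library and the groups overlapped. Dcn had a log2 fold change of 0.14 with an interval of -0.31 to 0.59 (edgeR adjusted p = 1). Pdgfrb exceeded Pdgfra per kb 3.10 and 4.71 times in the insulin-depleted and 2.93 and 3.98 times in the non-depleted libraries.

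Differences between the replicate numbers recurred in both groups. Of the 44 genes that averaged 5 CPM or more, 20 were higher in replicate 2 of both groups, 17 were higher in replicate 1 of both groups and 7 differed in direction. The share with the same direction in both groups was 84.1%, close to the 79.7% of all 11595 other genes than insulin at that level. The median log2 ratio of replicate 2 over replicate 1 was 0.02 in insulin-depleted and 0.01 in non-depleted libraries, against 0.02 and 0.03 over all such genes, so the set as a whole did not lean to either number. Its classes did differ: the 8 fibrillar collagens at this level had medians of 0.25 and 0.26, the 13 basement membrane genes 0.02 and 0.00, and the 8 stromal cell genes -0.14 and -0.14. These are descriptions of 2 libraries a group, with no test.

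**Figure D3:**
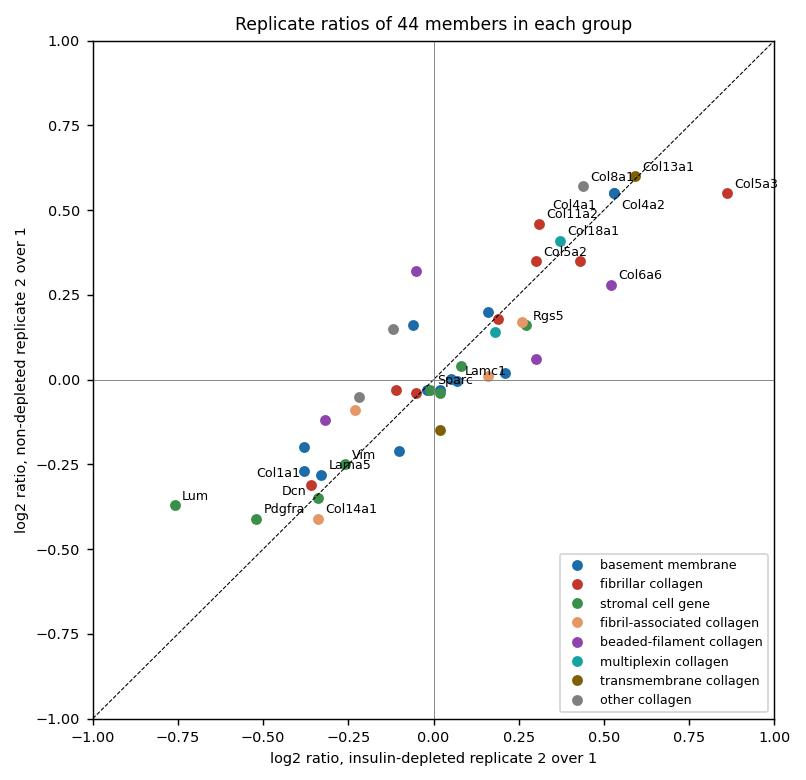
Log2 ratio of replicate 2 over replicate 1 for the 44 genes averaging 5 CPM or more, in insulin-depleted libraries on the horizontal axis and in non-depleted libraries on the vertical axis, with the dashed line at equality. Col4a1, Col4a2, Col13a1, Col8a1 and Col5a3 lie at the upper right, and Lum, Pdgfra, Dcn, Col1a1 and Col14a1 at the lower left.

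At the ends of this range, Col5a3, Col13a1 and Col4a1 had log2 ratios of 0.86, 0.59 and 0.53 in the insulin-depleted and 0.55, 0.60 and 0.55 in the non-depleted libraries. Lum, Pdgfra and Col14a1 had -0.76, -0.52 and -0.34 in the insulin-depleted and -0.37, -0.41 and -0.41 in the non-depleted libraries. Among the 11595 genes, the ratio of Col4a1 stood above that of 96.2% in the insulin-depleted and 97.5% in the non-depleted libraries, and the ratio of Dcn above that of 6.399% and 4.85%. Fibrillar collagens stood at both ends, since Col1a1 had ratios of -0.36 and -0.31 and Col5a2 had 0.30 and 0.35.

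Markers of other cells also differed between replicates. The 13 acinar-cell markers, genes of the digestive tissue around islets, summed to 13950 and 5778 CPM in insulin-depleted replicates 1 and 2 and, in the non-depleted pair, to 13940 CPM in replicate 1 and 5767 CPM in replicate 2. Of these markers, 0 were at 0 counts in every library. Acinar RNA was thus higher in the libraries in which Dcn, Lum, Pdgfra, Col14a1 and Col1a1 were higher, and its part in those differences was not tested. The 10 endothelial markers summed to 1039 and 1121 CPM in the insulin-depleted and 1030 and 1128 CPM in the non-depleted libraries. Among them Kdr, a receptor of vascular endothelial growth factor, had 242 and 244 CPM against 236 and 241 CPM, and Flt1, another such receptor, 226 and 252 CPM against 231 and 251 CPM. Taken singly, the 10 endothelial markers had log2 ratios of replicate 2 over 1 between -0.26 and 0.28. Those of Col4a1 and Col4a2 were 0.53 in the insulin-depleted and 0.55 in the non-depleted libraries. Any part of endothelial RNA in the differences of Col4a1 and Col4a2 was not tested. Further pericyte and smooth muscle markers (9 genes) summed to 143 and 155 CPM against 148 and 151 CPM, with Mcam and Abcc9 the highest. Further fibroblast and stellate markers (9 genes) summed to 116 and 144 CPM against 111 and 144 CPM, most of it from Gsn, which many cell types express. Gsn had 85.0 and 118 CPM against 78.0 and 114 CPM, and the direction of the sum came from it. Of the 4 markers in this list averaging 5 CPM or more, Gsn and Dpt were higher in replicate 2 of both groups. Ngfr and Thy1 were higher in replicate 1 of both groups. Mesothelial markers (5 genes) summed to 70.5 and 49.9 CPM against 72.4 and 51.5 CPM, so their sum was also higher in replicate 1. The 2 at a testable level were Msln and Krt19, and Krt19 is also among the ductal genes listed below. Log2 ratios of replicate 2 over 1 in the insulin-depleted and non-depleted libraries were -0.24 and -0.4 for Msln and -0.94 and -0.65 for Krt19. Wt1, Lrrn4 and Upk3b had at most 10 counts in any library, so the sum cannot tell mesothelial from ductal RNA.

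Depletion was not followed by a detectable change in any of these genes. In the edgeR quasi-likelihood test on group alone, 2 of 19723 genes passed an adjusted p of 0.05 (0.0101%), both lower in insulin-depleted libraries, and they were Ins1 and Ins2. Of the 67 genes, 62 had enough counts to be tested, and 0 were called higher and 0 lower. At an unadjusted p under 0.05 there were 0 of them, against 82 of all genes (0.416%), and DESeq2 and limma-voom also called 0. So few of all genes reached that unadjusted level that 0 of 62 does not set these genes apart. In the edgeR fit with a replicate block, described at the end, 2 of 62 and 853 of 19723 genes reached it. Col9a1, Col10a1, Col17a1, Col22a1 and Col24a1 were not tested and had averages of at most 0.193 CPM in either group. Log2 fold changes of the tested genes were positive for 24 and negative for 38, and their median was -0.02, against 9625 and 10096 and a median of -0.0025 over the 19721 genes other than insulin. Class medians were -0.01 for the 20 basement membrane genes, -0.05 for 10 fibrillar collagens, -0.06 for 7 fibril-associated collagens, -0.03 for the 6 beaded-filament collagens and -0.01 for the 9 stromal cell genes. They were -0.13 for 5 other collagens, 0.06 for the 2 multiplexins and 0.02 for 3 transmembrane collagens.

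The groups did not overlap for some of the 62 genes, 7 with the insulin-depleted pair on top and 7 with it at the bottom, or 11.3% each way. Over all 19721 genes other than insulin these shares were 10.2% and 9.33%, so the count was near the background. Among genes averaging 5 CPM or more, 35 of 44 were within 0.1 of 0 on the log2 scale (79.5%), against 82.9% of all genes at that level. The median half-width of the 95% intervals over the 62 genes was 0.45. A change within that size in a typical gene was not detectable at this replication with the fit on group alone. These intervals are for single genes without adjustment, so passing the adjusted threshold would take a larger change. The fit on group alone counts differences between the replicate numbers as spread.

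**Figure D4:**
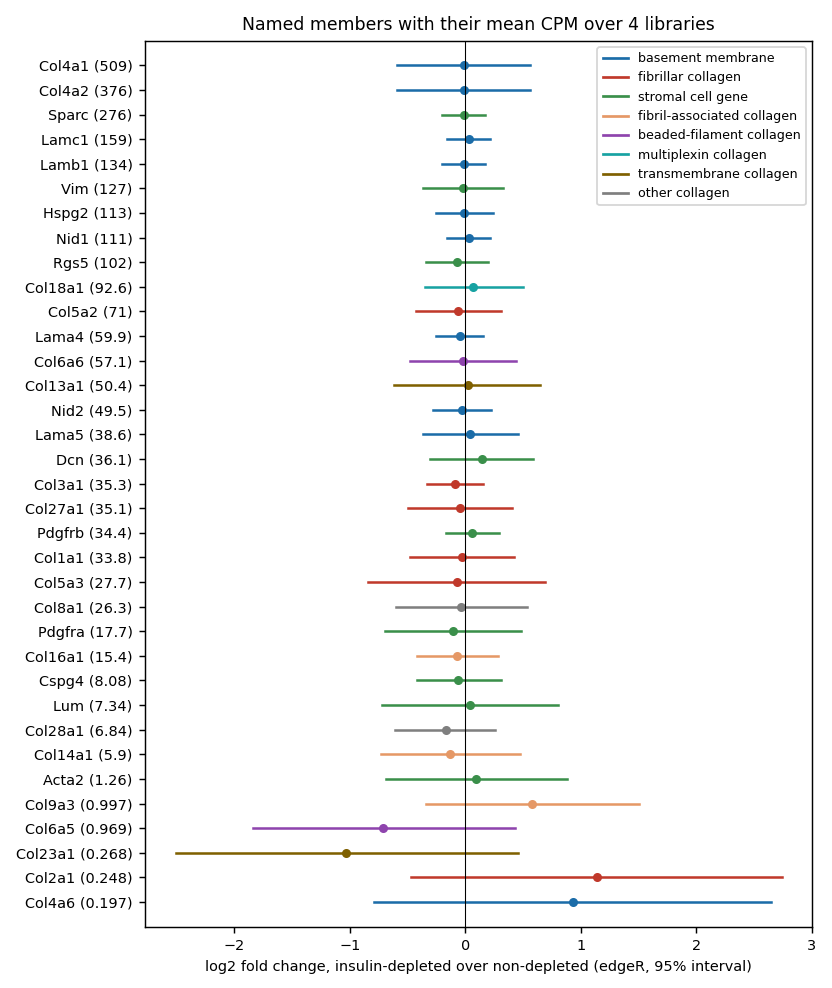
Log2 fold change of insulin-depleted over non-depleted libraries with its 95% interval (edgeR) for 35 genes, ordered by mean CPM over 4 libraries, which stands in parentheses. Every interval includes 0, and genes under 1 CPM have the widest.

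The smallest unadjusted p-values in each direction belonged mostly to genes near or under 1 CPM. Higher in insulin-depleted libraries were Col2a1, the cartilage collagen (log2 fold change 1.14, interval -0.47 to 2.74), Col9a3, a fibril-associated cartilage collagen (0.58, SE 0.37), and Col4a6 (0.93, -0.79 to 2.65). Lower were Col23a1 (-1.03, -2.51 to 0.46), Col6a5 (-0.71, -1.84 to 0.43) and Col28a1 (-0.17, -0.61 to 0.26). The first of each trio had 8 and 18 counts for Col2a1 in the insulin-depleted and 7 and 9 in the non-depleted libraries, and 4 and 10 counts for Col23a1 against 16 and 22. None passed the adjustment over all genes (edgeR, adjusted p = 1 for each).

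Genes that make, modify, bind or remove matrix were also level between groups, with 0 called in any list. Of 25 tested genes of collagen synthesis and crosslinking, 11 were above and 14 below 0 (median log2 fold change -0.02). The highest were P4hb, a subunit of the prolyl hydroxylase that stabilises the collagen helix (-0.02), and P4ha1, its catalytic partner (-0.01). Of 14 tested matrix receptors, 9 were above and 5 below 0 (median 0.03), with Itgb1, the shared integrin beta chain, at 0.01. The alpha chain gene Itgav had 467 and 422 CPM in the insulin-depleted and 467 and 420 CPM in the non-depleted libraries. Of 9 tested genes of matrix turnover, 5 were above and 4 below 0 (median 0.03), with the metalloproteinase inhibitor Timp3 at 0.03 and the membrane metalloproteinase Mmp14 at -0.02. Of 12 other matrix proteins, 9 were above and 3 below 0 (median 0.01). Tnc, the adhesion-modulating protein tenascin C, had 405 and 382 CPM in the insulin-depleted and 415 and 368 CPM in the non-depleted libraries, and Bgn, the proteoglycan biglycan, 48.3 and 44.7 CPM against 51.7 and 46.0 CPM.

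Median log2 fold changes of the cell marker lists were -0.01 for 10 endothelial, 0.0046 for 7 tested pericyte and smooth muscle, 0.08 for 9 fibroblast and stellate, and -0.06 for 2 tested mesothelial genes. They were -0.05 for 6 Schwann-cell, -0.10 for 7 immune, -0.01 for 12 tested acinar, -0.04 for 7 ductal and -0.01 for 9 beta-cell genes, against -0.0025 over all genes other than insulin. The highest of each were Kdr (0.02), Mcam (-0.03), Gsn (0.08), Msln (-0.05), Mbp (-0.05), Cd68 (-0.11), Ctrb1 (-0.01), Spp1 (-0.01) and Iapp (-0.01), and none was called (edgeR, adjusted p = 1 for each).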

How the data were processed

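The authors deposited 1 table of gene counts, whole numbers with no normalization, for 55536 genes in 4 libraries. The authors' columns for non-depleted libraries are listed under estimated counts (expected counts), since a unit check took a word in their names for a size. Their values are whole, so rounding changed nothing. They were matched to their libraries by lacking the depletion tag and ending in the replicate number. The submitters' processing notes name cutadapt 4.8, STAR 2.7.11b and the builds GRCm38 and mm10. Which program counted, and whether by strand, is not given in the sources used here. Even numbers made up 80.01 to 84.01% of all values between 2 and 9. Whether both reads of a pair were counted is not stated, so counting intervals may be too narrow.

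All 55536 gene IDs matched GENCODE M21, which gave positions, merged exon lengths and longest transcripts. CPM used totals without Ins1 and Ins2. Tests used edgeR 4.0.16 in R 4.3.3 (filterByExpr, TMM, glmQLFit with robust estimation, glmQLFTest on group alone), with Benjamini-Hochberg adjustment over 19723 genes and a threshold of 0.05. Standard errors come from the log2 fold change and the F statistic. The common dispersion was 0.0291. DESeq2 1.42.0 and limma 3.58.1 (voom) were alternatives. The step was tested on simulated data.

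Members and lists were chosen with earlier results of these data known. Named genes are the 10 highest basement membrane and 5 highest fibrillar genes per kb, all 9 stromal cell genes, the highest of each other class, the 3 lowest unadjusted p-values per direction and the 3 with the largest replicate ratio in each direction at 5 CPM or more, and in each of 13 other lists the 2 of highest mean CPM, with some lists shown by the first alone. Other members named with values were chosen after their values were seen. Values of 1 member are not reported here.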

Additional observations from a re-analysis of the deposited data

How the results depend on the processing

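The number of these genes called stayed at 0 in each direction under all 12 alternatives of the fit: DESeq2, limma-voom, DESeq2 size factors, totals without insulin, no low-count filter, a mean of at least 5 CPM, counts divided by 2, a replicate block and each library left out. The median log2 fold change stayed within -0.03 to -0.01 in the alternatives that kept all libraries. With 1 library left out it ran from -0.05 to 0.01, the latter without insulin-depleted replicate 1. The fibrillar to basement membrane difference was -0.04 to -0.03 under other lengths, without low genes and without the highest gene of each class. It ran from -0.09 to 0.02 with 1 library left out, and turned positive without insulin-depleted replicate 2 or non-depleted replicate 1. The difference in share of counts was 0.0104 percentage points with insulin kept in the totals, which by construction lowers the non-depleted shares, and -0.000806 without Sparc and Vim. It ran from -0.0216 to 0.0195 with 1 library left out and was above 0 without insulin-depleted replicate 1 or non-depleted replicate 2, and the cause was not tested. Basement membrane genes among the 10 highest numbered 6 or 7 throughout.

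Log2 fold changes of the 36 named genes stayed within 1 replicate SD in 279 of 279 values under the alternatives that kept all libraries, and in 111 of 144 with 1 library left out, where the lone library is assumed to vary like the others. Libraries with the same number deviated together (r = 0.846 over 11552 genes), but the labels do not say that they share an animal. With a replicate block in edgeR, the median over these genes was -0.02 and 0 were called. Unadjusted p-values under 0.05 in this edgeR fit belonged to 2 of 62 (Col4a5 and Dcn, smallest adjusted p 0.999). That share was below the 853 of 19723 over all genes. At the adjusted threshold, 9 of all genes were called in place of 2. With 2 libraries a group, and only 19316173 counts in insulin-depleted replicate 1, named genes under 1 CPM carry the widest intervals.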
